A study of Mus musculus with 14 samples.

Results

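The 1-hour TNFα libraries for CRTC2 and for NF-κB p65 were set against each other here, by the peak lists deposited for each. A CRTC2 and a p65 peak with 1 bp or more in common made a shared locus, and each remaining peak was a CRTC2 only or p65 only locus. The 19527 CRTC2 peaks and 2404 p65 peaks gave 21809 loci, of which 122 were shared, 19405 were CRTC2 only and 2282 were p65 only, out of 243429 peaks and regions in the 12 lists of the series. Each shared locus held 1 peak of each protein.

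3T3-L1 cells, a mouse fibroblast line that can be turned into adipocytes in culture, were used after 4 days of differentiation. They were left untreated or given the adenylyl cyclase activator forskolin (FSK, 10 µM), TNFα (10 ng/ml) or FSK/TNFα for 1 h, and chromatin was precipitated for CRTC2, p65 or histone H3 acetylated at lysine 27 (H3AcK27). The CRTC2 and p65 libraries with TNFα held 26472345 and 26904732 tags, and the H3AcK27 library held 27966129. There was 1 library for each target and treatment, from a single cell line, so no value below has a replicate error and no test between libraries was possible. Intervals are 95% Wilson intervals and cover counting over loci only, and medians carry a 95% interval from the order of the values. An H3AcK27 region covered a start site of 3 of 8 adipocyte markers (Fabp4, Pparg and Lpl, not Adipoq, Plin1, Cebpa, Cd36 or Cidec) and of 6 of 6 preadipocyte or fibroblast markers, beside 49.5% of all protein-coding genes. It covered 2 of 6 macrophage markers (Csf1r and Cd68), and none of 4 endothelial, 3 hepatocyte and 3 neuron markers.

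CRTC2 is a coactivator without a DNA-binding domain of its own. It is held in the cytoplasm when phosphorylated by salt-inducible kinases and, once dephosphorylated, joins CREB at cAMP response elements (CRE). p65 is a DNA-binding NF-κB subunit that inhibitor proteins keep in the cytoplasm until a signal such as TNFα frees it to bind κB sites in promoters and enhancers of inflammatory genes. H3AcK27 marks active promoters and enhancers.

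Sequences of well-ranked shared loci that held a motif are printed here to show the motif letters and their surroundings. The capitals lie inside both peaks only at AW549877 and upstream of Cxcl5. At Eif4ebp1 they lie inside the CRTC2 peak only, and at the Cxcl1, Cxcl5, Gbp5, B2m and Ccdc174 promoters, Kdm6b and Trim25 inside the p65 peak only. Loci were ordered by the sum of their CRTC2 and p65 score ranks, and the part outside annotated exons of the 200 bp window around the locus midpoint is given, from the plus strand of GRCm38 (RefSeq). In the first group, the capitals mark the exact NF-κB motif, which in the Cxcl1 and Cxcl5 promoters is an overlapping match on both strands. The first 3 loci were promoters among the first 40 in the order. The last one, 52908 bp upstream of Cxcl5, was the shared locus with the highest p65 score and was chosen after its values were seen.
Cxcl1 promoter, chr5:90891095-90891240: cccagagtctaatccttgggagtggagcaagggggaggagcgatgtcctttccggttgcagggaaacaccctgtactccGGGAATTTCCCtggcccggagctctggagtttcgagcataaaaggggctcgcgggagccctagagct
Cxcl5 promoter, chr5:90759237-90759359: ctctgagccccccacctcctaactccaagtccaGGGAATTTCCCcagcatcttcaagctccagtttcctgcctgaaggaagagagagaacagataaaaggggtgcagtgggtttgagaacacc
Gbp5 promoter, chr3:142496818-142496899: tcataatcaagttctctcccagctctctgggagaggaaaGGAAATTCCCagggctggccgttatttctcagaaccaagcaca
Upstream of Cxcl5, chr5:90706370-90706569: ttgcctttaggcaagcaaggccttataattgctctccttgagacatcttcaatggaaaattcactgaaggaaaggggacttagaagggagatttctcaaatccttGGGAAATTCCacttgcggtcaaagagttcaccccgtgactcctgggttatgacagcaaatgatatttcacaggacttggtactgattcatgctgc
In the second group, the capitals mark the CRE letters TGACG on either strand.
B2m promoter, chr2:122147545-122147685: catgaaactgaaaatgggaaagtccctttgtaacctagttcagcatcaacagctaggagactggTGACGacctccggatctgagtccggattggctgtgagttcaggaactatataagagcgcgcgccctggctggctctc
Eif4ebp1 promoter, chr8:27260133-27260328: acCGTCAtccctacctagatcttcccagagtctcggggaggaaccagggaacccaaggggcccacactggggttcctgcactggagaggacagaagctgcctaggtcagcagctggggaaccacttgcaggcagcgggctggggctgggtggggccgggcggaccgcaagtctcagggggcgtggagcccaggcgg
AW549877 promoter, chr15:3995745-3995858: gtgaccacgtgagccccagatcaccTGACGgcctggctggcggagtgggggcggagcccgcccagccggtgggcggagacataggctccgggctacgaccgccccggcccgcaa
Kdm6b intron, chr11:69409391-69409590: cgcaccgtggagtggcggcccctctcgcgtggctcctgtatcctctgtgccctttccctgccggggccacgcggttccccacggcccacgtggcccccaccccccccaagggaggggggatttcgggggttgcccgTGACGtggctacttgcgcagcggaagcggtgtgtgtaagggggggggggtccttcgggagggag
Ccdc174 promoter, chr6:91877986-91878052: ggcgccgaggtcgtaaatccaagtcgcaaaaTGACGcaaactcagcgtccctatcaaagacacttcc
Near Trim25, chr11:89024168-89024367: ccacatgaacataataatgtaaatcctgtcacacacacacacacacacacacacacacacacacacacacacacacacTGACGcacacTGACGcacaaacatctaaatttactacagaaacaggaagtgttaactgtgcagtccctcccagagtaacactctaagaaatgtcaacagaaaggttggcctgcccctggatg
At the Tapbp, Emp3 and Rars loci, the motif lay in an exon and no sequence is given.

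Few of the binding sites coincided. Of the p65 peaks, 122 of 2404 (5.07%, 4.27 to 6.03) overlapped a CRTC2 peak, and of the CRTC2 peaks, 122 of 19527 (0.625%, 0.524 to 0.745) overlapped a p65 peak. A further 202 p65 peaks (8.40%) had a CRTC2 peak midpoint within 1 kb without overlap, 581 (24.2%) had one at 1 to 10 kb, 1040 (43.3%) at 10 to 100 kb, and 459 (19.1%) had none within 100 kb. The nearer group was more often acetylated: 90.2% of the overlapping p65 peaks lay in an H3AcK27 region, against 84.2% of those within 1 kb, 46.3% at 1 to 10 kb, 31.9% at 10 to 100 kb and 15.5% further away. The share that overlapped differed by position. Of the p65 peaks in promoters, 46 of 134 (34.3%, 26.8 to 42.7) overlapped a CRTC2 peak, against 40 of 1062 in introns (3.77%) and 36 of 1143 between genes (3.15%). Overlapping peaks were placed here by their merged span. This span can be wider than the p65 peak and so reach a promoter more easily, which raises the promoter share. Promoters also held 9443 of the 19527 CRTC2 peaks, and the share of all promoters that meet a CRTC2 peak was not computed. Without it, 34.3% is not read as a result about p65 sites. For CRTC2 peaks the share was low in each place, at 0.487% of 9443 promoter peaks, 0.778% of 5140 intron peaks and 0.878% of 4102 intergenic peaks. Within the shared loci, the midpoints of the 2 peaks lay a median of 63 bp apart (45 to 80), and 35 pairs were within 25 bp. The closest pairs, near Spin2d (1 bp) and Grik1, Lmo7 and Erc2 (3 bp each), lay outside H3AcK27 regions, while that near Mef2d (3 bp) lay in one. The windows at Grik1 and Spin2d were 83.5% and 64% repeat, and at Grik1 both proteins had peaks in untreated cells.

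The shared loci were intermediate between the 2 single classes in position. A promoter here reached from 1000 bp before a protein-coding start site to 100 bp past it. One was overlapped by 46 of 122 shared loci (37.7%, 29.6 to 46.6), 48.4% of CRTC2 only loci (47.7 to 49.1) and 3.86% of p65 only loci (3.14 to 4.73). Introns held 32.8%, 26.3% and 44.8% of the shared, CRTC2 only and p65 only loci, and intergenic DNA held 29.5%, 21.0% and 48.5%. No shared locus had its midpoint in an exon outside promoters (0 of 122, up to 3.05% by the Wilson interval), against 4.34% and 2.85% of the other classes. The median distance from locus to the nearest protein-coding start site was 5373.5 bp for shared loci (1108 to 13673), 543 bp for CRTC2 only loci (504 to 603) and 30880 bp for p65 only loci (27653 to 34297). The windows of p65 only loci were also poorer in G and C (median 40.5%) than those of shared (51.5%) and CRTC2 only loci (55.5%), and held more repeat sequence (median 16% of bases, against 10.75% and 2%).

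Shared loci had the highest share in an H3AcK27 region of TNFα-treated cells. It was 110 of 122 shared loci (90.2%, 83.6 to 94.3), 74.4% of CRTC2 only loci (73.8 to 75) and 36.9% of p65 only loci (34.9 to 38.9). In promoters 97.8% of shared, 98.0% of CRTC2 only and 81.8% (72.5 to 88.5) of p65 only loci were acetylated. When both lists were limited to peaks above their middle score, the order of shared and CRTC2 only loci turned, at 94.7% (82.7 to 98.5) of 38 and 97.7% of 9153. Outside promoters the difference between classes was wider, with 65 of 76 shared loci (85.5%, 75.9 to 91.7) in a region, 52.3% of CRTC2 only and 35.1% of p65 only loci. The regions themselves were also wider at shared loci (median 5180 bp, 4026 to 6413) than at CRTC2 only loci (3201.5 bp, 3157 to 3258). At p65 only loci the median was 4430 bp (4098 to 4687), an interval inside that of shared loci. Regions at shared loci held a median of 97.9 normalized H3AcK27 tags per kb (88.1 to 110), against 74.2 at CRTC2 only and 66.7 at p65 only loci. The acetylated shared loci were acetylated without TNFα as well, since all 110 also overlapped a region of untreated cells. The 12 shared loci outside a TNFα region were those nearest to Gm10135, Acacb, Inpp5b, Lmo7, Spin2d, Shcbp1, Grik1, Fnbp1l, Kcmf1, Cln8, Erc2 and Calcoco1.

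**Figure D1:**
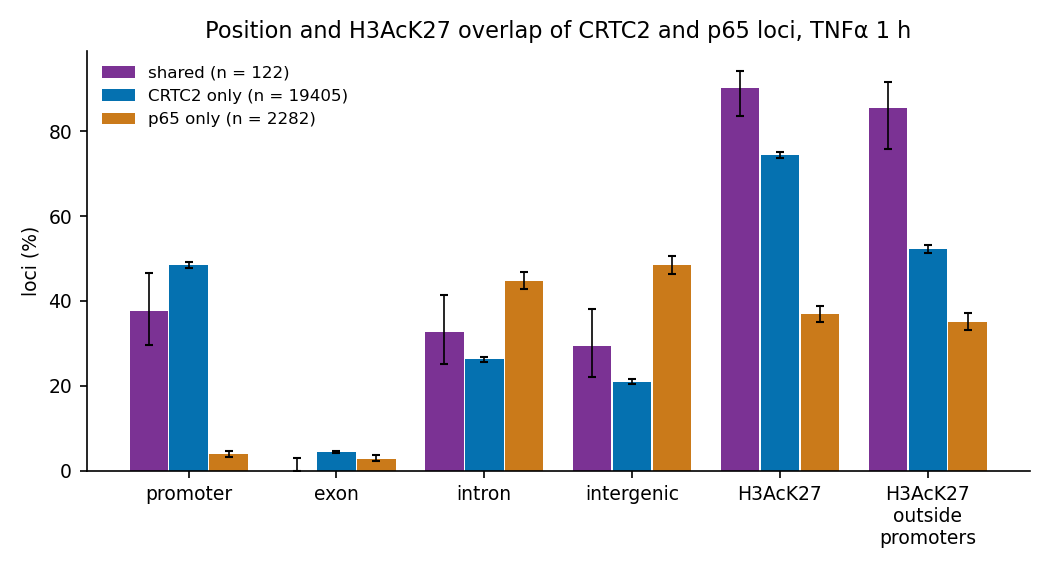
Share of loci (vertical axis, %) by class of position, and share overlapping an H3AcK27 region of TNFα-treated cells, for shared, CRTC2 only and p65 only loci. Bars are shares and error bars 95% Wilson intervals. In promoters the shared loci (37.7%) sat between CRTC2 only (48.4%) and p65 only loci (3.86%), and in H3AcK27 overlap (90.2%) above both.

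The share of p65 peaks that were acetylated or overlapped CRTC2 was higher at higher p65 scores (the score is the peak's tag count with at most 1 tag per position), whereas the promoter share was 5.13% to 7.76% in every score group with no order. Only 0.32% of p65 tags lay in its peaks, against 3.1% for CRTC2, and the input removed 6314 of 8991 putative p65 peaks, so a p65 site below the threshold is not listed. The p65 list was shallow, with scores from 8 to 68 and a median at the minimum of 8, whereas CRTC2 scores ran from 8 to 301 with a median of 11. Of the 1463 p65 peaks with a score of 8, 3.28% (2.48 to 4.32) overlapped a CRTC2 peak, rising to 10.3% at 10 to 11, 12.1% at 12 to 15 and 17.6% (10.4 to 28.4) of the 68 peaks at 16 and over. H3AcK27 overlap went from 29.8% at a score of 8 to 81.9% at 12 to 15 and 76.5% at 16 and over. Among p65 only loci with a score of 12 to 15, 82.4% lay in an H3AcK27 region, beside 78.6% (52.4 to 92.4) of the 14 shared loci in that group, and at 16 and over the shares were 73.2% (60.4 to 83) and 91.7% (64.6 to 98.5) of 12. Below 12 the intervals of the classes were apart, with 27.8% of p65 only against 87.5% of 48 shared loci at a score of 8, 39.2% against 95.2% of 21 at 9, and 58.3% against 96.3% of 27 at 10 to 11. By contrast, the share of CRTC2 peaks that overlapped p65 hardly followed the CRTC2 score, at 0.640% (0.434 to 0.943) of the 3906 peaks with the highest scores and 0.487% (0.312 to 0.759) of the 3905 with the lowest.

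**Figure D2:**
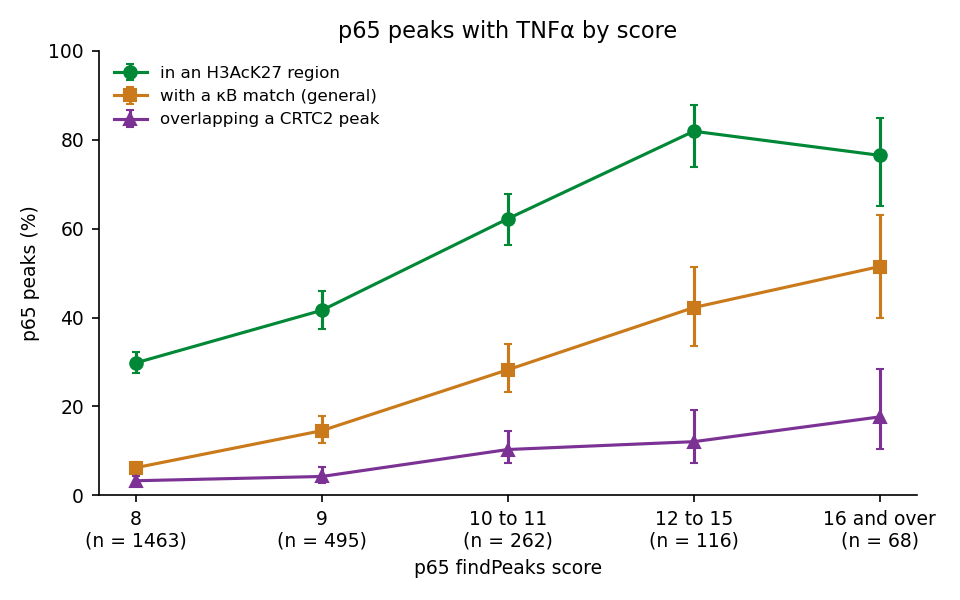
Share of all p65 peaks with TNFα (vertical axis, %) in an H3AcK27 region, with a general κB match and overlapping a CRTC2 peak, by findPeaks score (horizontal axis, number of peaks in brackets). Points are shares with 95% Wilson intervals; overlap with CRTC2 was 3.28% at a score of 8 and 17.6% at 16 and over.

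The shared peaks had a median percentile of 55.2 in the CRTC2 list and 71.2 in the p65 list, where 100 is the highest score. With ties, 71.2 is a p65 score of 9, next to the minimum of 8 at 30.4. The CRTC2 percentile was above that of p65 in 52 of 122 loci (42.6%, 34.2 to 51.5). The 22 loci at the lowest CRTC2 score had a percentile of 12.9 and could not be among them, because no p65 percentile was below 30.4. By fold over input the order of the medians turned, at 48.1 for CRTC2 and 42.7 for p65. The median CRTC2 score was 20 (15 to 28) at promoter loci, 9 (9 to 11) at intron loci and 10.5 (9 to 12) at intergenic loci. For p65 the medians were 8.5 (8 to 10), 9 (8 to 11) and 9.5 (9 to 10), with intervals that overlapped. Of the 122 loci, 18 were in the top 10% of the CRTC2 list by score and 36 in the top 10% of the p65 list. The 6 in both were the promoters of Cxcl1, Csf1, Cxcl5, Gbp2, Tapbp and Cp.

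**Figure D3:**
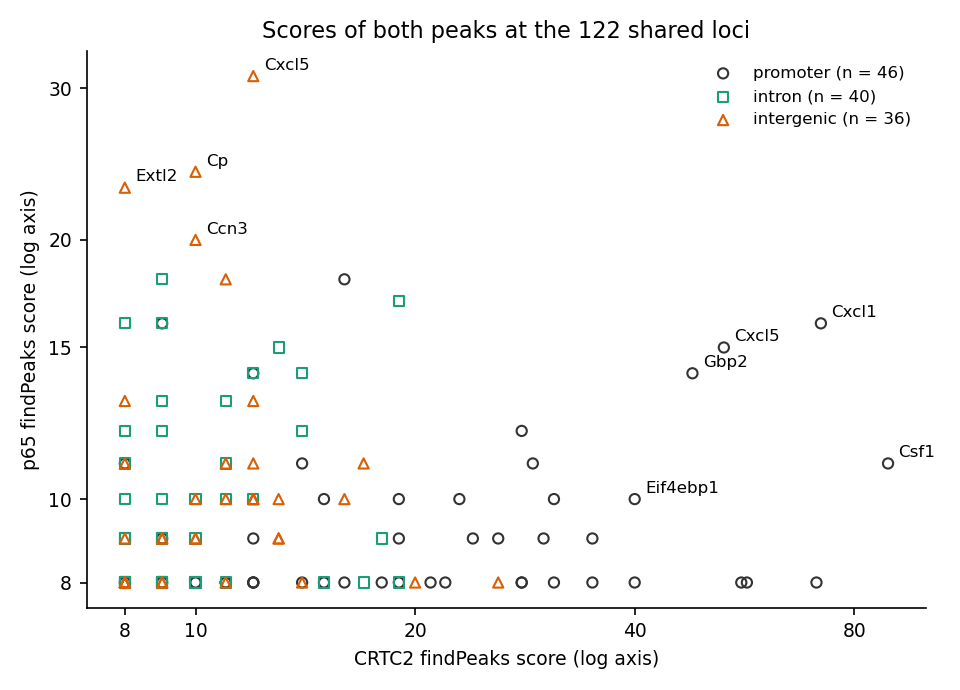
CRTC2 (horizontal) and p65 (vertical) findPeaks scores, both on log axes, at the 122 shared loci, with 1 point per locus and marks by position. Promoter loci spread to the right, up to a CRTC2 score of 89 at Csf1, while the 4 loci with a p65 score of 20 or more were intergenic with CRTC2 scores of 8 to 12.

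The shared locus with the smallest sum of ranks was the promoter of Cxcl1 (ENSMUSG00000029380, chr5:90891047-90891343), which encodes a neutrophil-attracting chemokine. Its CRTC2 peak had a score of 72 (rank 88 of 19527) with 87.6 normalized tags (tags per 10000000 in the library), 75.08-fold over input, and its p65 peak a score of 16 (rank 61 of 2404) with 23.8 tags, 61.13-fold over input. The locus midpoint was 46 bp upstream of the start site, with the peak midpoints 137 bp apart, and neither protein had a peak here in untreated cells. The Csf1 promoter, of the macrophage growth factor M-CSF, had the highest CRTC2 score of the shared loci (89, rank 49, 113.7 tags) and a p65 score of 11 (rank 222, 14.9 tags, 5.46-fold). The Cxcl5 promoter, of a further CXC chemokine, had scores of 53 and 15 (54.4 and 19.0 tags), but its p65 fold of 4.06 was just above the authors' minimum of 4, with 12 input tags under the peak. The Gbp2 promoter, of an interferon-induced GTPase, had scores of 48 and 14. In untreated cells CRTC2 already had a peak at the Csf1 and Cxcl5 promoters but not at that of Gbp2, and p65 had a peak at none of these.

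The rest of the first 20 loci were promoters as well, with 1 exception. CRTC2 ranks ran to 19527 and p65 ranks to 2404, so the rank sum mostly followed the CRTC2 rank. Promoters held 88.4% of the 3906 CRTC2 peaks with the highest scores and 9.88% of the 3905 with the lowest. The many promoters among these 20 loci are therefore no separate result. B2m, the light chain of MHC class I, had a CRTC2 score of 71 and a p65 score of 8, the minimum of the list. Tapbp, the tapasin that loads peptides onto MHC class I, had scores of 29 and 11 (35.1 and 21.9 tags, midpoints 14 bp apart). Cp, ceruloplasmin, had 28 and 12 in its promoter. Map3k8, the kinase TPL2 downstream of TNF receptors, had 35 and 8, and the ADP-ribosyltransferase gene Parp10 had 24 and 9. The other loci of the first 20 had CRTC2 scores of 23 to 57 and p65 scores of 8 to 10, and were the promoters of Eif4ebp1 (the translation repressor 4E-BP1; 40 and 10), Rgs3, AW549877, Ube2d3, Cdc42se1, the histone gene Hist4h4, Gxylt1, Vps45, Emp3 and Ccnl1, and an intergenic locus 35154 bp from Mef2d. Of these 20, 19 were promoter loci. The p65 score was at its minimum in 7 of them and 1 above it in 4 more (Ube2d3, Cdc42se1, Emp3 and Parp10). Beside Csf1 and Cxcl5, CRTC2 also had a peak in untreated cells at Eif4ebp1, Rgs3, B2m, AW549877, Ube2d3, Cdc42se1, Hist4h4, Vps45, Parp10 and the Mef2d locus. Over all shared loci this share was 15.6%.

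The 4 highest p65 scores among the shared loci lay away from promoters. A locus 52908 bp upstream of Cxcl5 (chr5:90706379-90706561) had the highest p65 score, 31 (rank 10), with a CRTC2 score of 12 (rank 8941). A second Cp locus, 2892 bp upstream, had scores of 24 for p65 and 10 for CRTC2, one near Extl2 had 23 and 8, and one 63635 bp from Ccn3 had 20 and 10. The highest p65 score in a shared promoter was 18, at Gm5475 (rank 41, 120.36-fold). An intron of Kdm6b, which encodes a histone H3K27 demethylase, had 17 and 19. Cxcl1, Cxcl5 and Cp were the only genes nearest to more than 1 shared locus, with a pair each.

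The CXC chemokine cluster of chromosome 5 held 4 of the shared loci. A second locus near Cxcl1, 14928 bp upstream, had scores of 12 for CRTC2 and 11 for p65. Over the 280 kb shown around the cluster there were 12 CRTC2 peaks, 8 p65 peaks and 28 H3AcK27 regions. Cxcl2, 12.63 kb downstream of Cxcl1, and the genes Ppbp, Pf4, Cxcl3 and Cxcl15 were nearest to no shared locus, and no peak of either protein was called within 10 kb of the Cxcl2 start site.

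**Figure D4:**
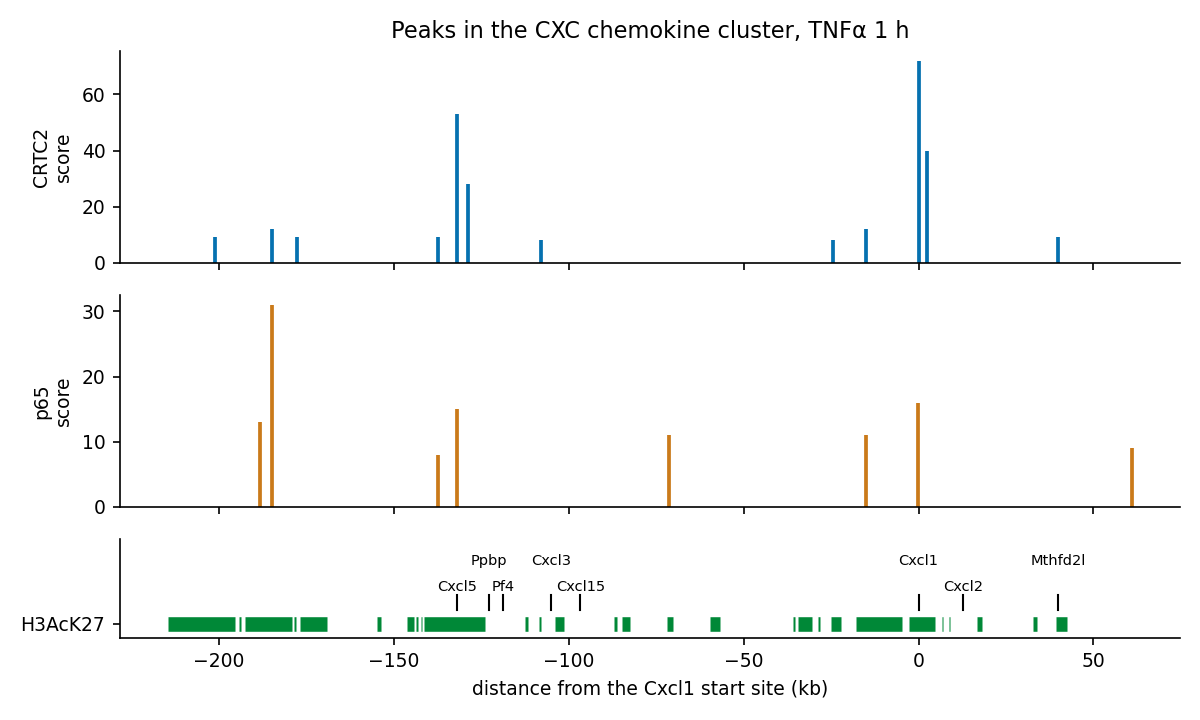
Scores of CRTC2 peaks (top) and p65 peaks (middle) and extent of H3AcK27 regions (bottom, bars) with TNFα, by distance from the Cxcl1 start site in kb, with protein-coding start sites named. Both proteins had peaks at the Cxcl1 and Cxcl5 start sites, at 14928 bp upstream of Cxcl1 and at 52908 bp upstream of Cxcl5.

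The shared loci were assigned to their nearest protein-coding gene. In promoters these genes included Cxcl1, Csf1, Cxcl5, Gbp2, Eif4ebp1, Rgs3, B2m, AW549877, Ube2d3, Tapbp, Cdc42se1, Hist4h4, Cp, Gxylt1, Map3k8, Vps45, Emp3, Parp10, Ccnl1, St6galnac6, Exosc8, Msl2, Pes1, Ccdc174, Zfp456, Gm5475, Mblac1, Mmaa, Pnn, Gbp5, Rars, Tpbg, Ptpre, Tnfaip3, Mafg, Maz, Rab5c, Zfp169, Zbtb7a, Cnot6l, Synpo, Shcbp1, Fut10, Ikbke and Camk2a. In introns they were Kdm6b, Traf4, Hlcs, Tubd1, Gm10135, Bcdin3d, Zfp36l2, Sept9, Acacb, St5, Apbb2, Trp63, Inpp5b, Gas7, Ncor1, Atf7, 1700012B07Rik, Gm43552, Ppm1h, Myh9, Hsf2bp, Cyth3, Maml3, Synpo2, Spin2d, Grik1, Adamts7, Zc2hc1a, Fam83g, Fnbp1l, Ak5, Hrh1, Zfp827, Kcmf1, Tspan18, Cln8, St7, Erc2, Togaram2 and Rbm47. Between genes they were Mef2d, Sertad2, Trim25, Klf7, Nup35, Rnd1, Myc, Clec10a, Ptges, Cxcl5, Smim15, Tgfbr3, Cxcl1, Bin3, Ccdc90b, Emc2, Mat2b, Cp, Ccn3, Prcp, Ltc4s, Arl1, Lmo7, Gdnf, Fstl1, Cd69, Noct, Wsb1, Extl2, Sectm1a, Cyp1b1, Ado, Arsj, Syt7, Calcoco1 and Eno1b. The nearest gene need not be the one a locus acts on: 11 of the loci lay over 100 kb from any protein-coding start site, and the one assigned to Myc was 405080 bp away.

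Gene lists were read against all 21842 protein-coding genes, of which 119 (0.545%) were nearest to a shared locus, 10411 (47.7%) to a CRTC2 only locus, 1692 (7.75%) to a p65 only locus, and 10820 (49.5%) had a start site in an H3AcK27 region. Of 17 NF-κB subunits, inhibitors and feedback genes, 1 was nearest to a shared locus, 16 to a CRTC2 only locus and 10 to a p65 only locus. The shared one was Tnfaip3, which encodes the deubiquitinating enzyme A20 that curbs NF-κB signalling, with promoter scores of 12 for CRTC2 (17.4 tags, 14.89-fold) and 14 for p65 (18.2 tags, 23.4-fold). Of 20 chemokines and cytokines, 3 (Cxcl1, Cxcl5 and Csf1) were nearest to a shared locus, 13 to a CRTC2 only and 8 to a p65 only locus. None of 11 adhesion and TNF receptor genes, 24 classical CREB/CRTC targets, 14 CREB, CRTC and SIK regulators, 11 AP-1 family genes or 18 adipocyte genes was nearest to a shared locus. The classical CREB/CRTC targets were nearest to CRTC2 only loci in 20 cases and to p65 only loci in 10, the AP-1 genes in 11 and 5, the adhesion and TNF receptor genes in 7 and 3, the regulators in 13 and 2, and the adipocyte genes in 8 and 1.

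Genes were shared more often than sites: of 1768 genes nearest to a p65 peak, 1410 (79.8%) were also nearest to a CRTC2 peak, which is 13.5% of the 10436 genes nearest to one, and 47.7% of all genes were nearest to a CRTC2 only locus. At several start sites of NF-κB inhibitor and feedback genes, chosen after their values were seen, both proteins had peaks side by side that did not touch. At Nfkbia, the gene of the inhibitor IκBα, the p65 peak (score 13) and the CRTC2 peak (score 73) had midpoints 193 bp apart. At Nfkb2 (p65 score 27, CRTC2 score 38) they were 202 bp apart, at Cyld (9 and 19) 169 bp, at Nfkbib (8 and 10) 314 bp and at Nfkbiz (11 and 30) 342 bp. Of the 88 p65 only loci in promoters, 47 (53.4%, 43.1 to 63.5) had a CRTC2 midpoint within 1 kb, against 74 of 1022 in introns (7.24%) and 78 of 1107 between genes (7.05%). The same share over all promoters was not computed. Of all protein-coding genes, 49.4% had a CRTC2 only locus within 10 kb of a start site. That value has a wider reach and counts genes, so it cannot stand in for the missing share. Without that share, 53.4% is not read as a result about p65 sites.

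Among the genes the study names, Cxcl1 and Cxcl5 had shared loci and Cxcl2, Tnf, Il1b and Cebpa were nearest to no peak of either protein. Ccl2, which encodes the monocyte chemoattractant MCP-1, had a strong CRTC2 peak at its start site (score 77, 97.8 tags) and p65 peaks apart from it, of scores 27, 25 and 17 at 28660, 19074 and 2348 bp upstream, the last with an exact NF-κB motif. Lif had a CRTC2 promoter peak (score 15) and, 32973 bp downstream of its start site, a p65 peak (score 14) 169 bp from a CRTC2 peak. At Il6 the CRTC2 promoter peaks had scores of 11 and 13 and the nearest p65 peak assigned to the gene (score 8) lay 18076 bp upstream. Sik2 and Nr4a1 had CRTC2 peaks in their promoters (scores 22 and 10), and no p65 peak had either as its nearest gene.

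Over all scores, matches to the general κB consensus were most frequent in shared loci. Windows of 200 bp at locus midpoints were read on both strands, beside windows of the same size 2 kb away. The general κB consensus, a looser form that includes the exact motif, was in 42 of 122 shared loci (34.4%, 26.6 to 43.2), 12.2% of p65 only loci (10.9 to 13.6) and 3.25% of CRTC2 only loci (3.01 to 3.51), against 1.23%, 1.73% and 1.8% of the distant windows and 3.37% of all windows upstream of protein-coding start sites. The share depended on the p65 score, from 16.7% of shared and 5.87% of p65 only loci at a score of 8 to 66.7% of 12 and 48.2% of 56 at 16 and over, and at 12 to 15 the order turned, with 21.4% (7.57 to 47.6) of 14 shared and 45.1% (35.8 to 54.8) of 102 p65 only loci. The exact motif was in 10 shared loci (8.20%, 4.51 to 14.4), 1.88% of p65 only and 0.144% of CRTC2 only loci, and in 0.105% of windows upstream of start sites. The 10 were Cxcl1, Cxcl5 and its distant locus, Tapbp, Gbp5, Trp63, Ccn3, Ncor1, Ppm1h and Extl2. The κB matches lay nearer p65: their median distance was 15 bp (9 to 22) from the p65 midpoint and 82 bp (46 to 101) from the CRTC2 midpoint, and 31 of 42 were nearer to p65.

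The CRE letters TGACG were as frequent in shared (19 of 122, 15.6%, 10.2 to 23.0) as in CRTC2 only loci (15.7%, 15.2 to 16.2), and less so in p65 only loci (5.92%, 5.02 to 6.96, against 5.43% of their distant windows). They were in 17.8% of windows upstream of all start sites, and outside promoters the shares were 11.8%, 7.95% and 5.70% of shared, CRTC2 only and p65 only loci. The AP1 letters TGAGTCA were in 13.1% of shared loci (8.24 to 20.2), 5.26% of CRTC2 only and 9.03% of p65 only loci, and the C/EBP letters TTGCNNAA in 13.1%, 6.68% and 12.1%. In the distant windows of the same classes, AP1 was in 3.69%, 3.59% and 3.86%, and C/EBP in 7.79%, 8.07% and 8.83%. CRE and κB matches were found together in 5 shared loci and AP1 and κB matches in 7, and 57 of 122 (46.7%) held none of the 3. A match describes letters and not a bound site, and the windows are centred on merged loci.

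**Figure D5:**
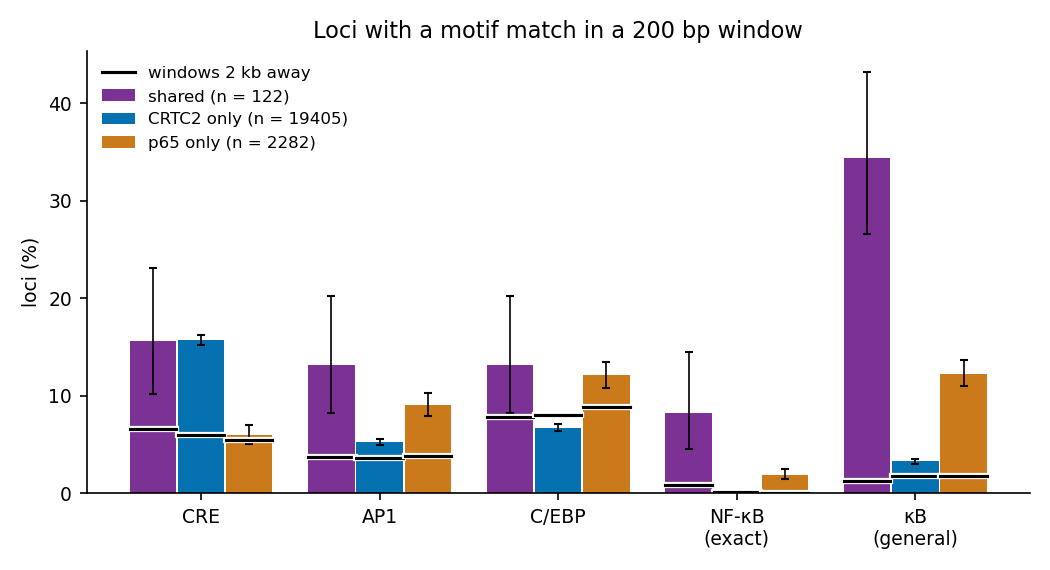
Share of loci (vertical axis, %) with a match to each motif in a 200 bp window, by class. Bars carry 95% Wilson intervals and the black lines give the windows 2 kb away; the general κB consensus stood at 34.4% of shared, 12.2% of p65 only and 3.25% of CRTC2 only loci.

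The same loci were looked up in the other lists. Of the shared loci, 19 (15.6%) overlapped a CRTC2 peak of untreated cells, 46 (37.7%) one with FSK and 57 (46.7%) one with FSK/TNFα, against 11.7%, 28.8% and 31.3% of CRTC2 only loci. For p65 the counts were 2 (1.64%), 8 (6.56%) and 40 (32.8%), against 0.219%, 1.18% and 10.3% of p65 only loci. Both proteins were listed with FSK/TNFα at 21 shared loci, and neither at 46. In promoters 58.7% of shared loci had CRTC2 and 19.6% had p65 with FSK/TNFα, in introns 40% and 37.5%, and between genes 38.9% and 44.4%. The FSK lists were called against a different input than the TNFα lists, and list sizes differed (5188 to 19527 CRTC2 and 214 to 4221 p65 peaks), so a missing call is not a measured loss.

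Single-class loci with the highest scores were mostly promoters for CRTC2 and never promoters for p65. Several of both lay in the same stretches of high input. The 10 CRTC2 only loci with the highest scores (182 to 301) were Ppp1r12a, mt-Cytb, a pair at Mdm2, Nup107, Jun, Slc35e3, Cct2, Frs2 and Fggy, and 9 of them lay in 2 Mb stretches with over 5 times the median input tags under listed peaks, 1 of these being the mitochondrial chromosome. The highest folds over input included Polr2a (906.75-fold), Gtf2a1, Tob1, Prss12, Jund, Actb, Zfp36l2, Kdm4c and Tarbp2, all of these promoters except Prss12 and all at 0.5 input tags, where the fold has a floor. The p65 only loci with the highest scores were nearest to Jun (68), Mdm2 (66), Gm10306 (63), Tyrp1 (46), Fggy (45), Sod2 (38), Tmem176b, Gdnf, Csf1 and Ifng, none of them a promoter, and those at Jun, Mdm2, Gm10306 and Fggy were in the same dense stretches, with 28 to 60 input tags. The CRTC2 only locus at Ppp1r12a (137 input tags) and the p65 only loci near Tyrp1 (40) and Ifng (26) also had high input, outside these stretches. Sod2, the mitochondrial superoxide dismutase, had p65 in an intron with 3 input tags and 57.63-fold. By fold the first 10 were nearest to Sik1 (187.22-fold), Psmg1, Cebpb, Csf2, Cep162, Tbc1d5, Snx18, Ptger2, Ripk2 and S1pr1. All of these except Snx18 were at the same floor of 0.5 input tags. Their scores ran from 8 at S1pr1, the minimum, to 27 at Snx18. Those near Cep162, Tbc1d5, Ptger2 and S1pr1 lay outside H3AcK27 regions. No shared locus lay in a dense stretch.

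The loci were spread unevenly over chromosomes. Chromosomes 3, 5, 11 and 15, picked after their values were seen, held 65 of 122 shared loci (53.3%, 44.5 to 61.9), 45.4% of p65 only loci and 31.8% of CRTC2 only loci. In H3AcK27 regions the untreated input had 19.9, 16.8, 17.1 and 18.2 tags per kb on these chromosomes, 22.5 on chromosome 10, which holds a pair of the dense stretches, and 9.83 to 16.5 on the others. The part of the input density in these counts was not tested.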

How the data were processed

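Deposited HOMER findPeaks lists were used as given. Per the labels and the submitters' processing notes, reads were processed with STAR and HOMER against mm10; versions are not given in the sources used here. The authors' lists give a normalized tag count, a signal per 10000000 tags, a findPeaks score and a fold ratio over input, with at least 4-fold over input, a Poisson p-value of 0.0001 and a false discovery rate of 0.001. The TNFα lists used untreated input. Coordinates fit GRCm38 (0 peaks past a chromosome end).

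Overlaps, positions (GENCODE vM21), nearest genes, motifs and repeats (soft-masked bases) were computed in Python 3.11.15 with pandas 2.3.3, scipy 1.17.1 and pysam 0.24.0, after the code was tested on simulated data. Promoters were called by overlap, exons and introns by locus midpoint. No test compared libraries. Members and lists were chosen with earlier results of these data known. Named were the genes nearest shared loci, the 20 shared loci with the smallest rank sum, the first 10 single-class loci by score and by fold, list members with a shared locus, and 11 genes of the study; sequences came from the first 40 loci. Some items that these rules select are not reported here.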

Additional observations from a re-analysis of the deposited data

How the results depend on the processing

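No paired analysis was possible because each target and treatment had 1 library, and no library could be left out. Of 116 alternative values for 51 results, 61 moved by less than their interval or, for counts, stayed within 1.5 times, and 55 moved. With both lists at 8-fold or more over input, 64 loci were shared (3.53% of p65 and 0.433% of CRTC2 peaks), CRTC2 only loci had 52.8% in promoters, a median distance of 348 bp and 77% in H3AcK27 regions, and 5.68%, 19.3%, 45.6% and 25.9% of p65 peaks had CRTC2 under 1 kb, at 1 to 10 kb, 10 to 100 kb and over 100 kb. Midpoints within 100 bp gave 3.41% of p65 and 0.42% of CRTC2 peaks, and peaks widened to 250 bp on either side gave 246 loci, 10.4% and 1.35%. A CRTC2 list cut to the size of the p65 list shared 20 loci, 0.832% of it. Promoters of 2500 bp upstream and 500 bp downstream held 54.4% of CRTC2 only and 7.84% of p65 only loci, and start sites of all annotated genes gave medians of 346 and 10661.5 bp.

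H3AcK27 regions at 8-fold or more held 78.7% of shared, 60.9% of CRTC2 only and 25.6% of p65 only loci, and in the upper part of each list by score the shares were 94.7%, 97.7% and 51.7%, so there the shared class was no longer the highest. Outside promoters 52.3% of CRTC2 only loci were acetylated, and at a p65 score of 12 or more 79.1% of p65 only loci. Windows of 400 bp gave CRE in 27.3% of CRTC2 only and 10.8% of p65 only, AP1 in 20.5%, 9.53% and 14.6% of shared, CRTC2 only and p65 only, the exact NF-κB motif in 0.273% of CRTC2 only, and repeats of 7.25% and 19% in CRTC2 only and p65 only loci. Outside promoters CRTC2 only loci had CRE in 7.95% and AP1 in 8.17%. The full CRE palindrome was in 0.82%, 1.12% and 0.131% of shared, CRTC2 only and p65 only loci. The general κB consensus was in 34.4%, 3.25% and 12.2%, and outside promoters in 36.8%, 2.87% and 12%. Ranked by fold, shared p65 peaks had a median percentile of 42.7, and by tags 69.4. With genes assigned within 10 kb, p65 only loci met 5 chemokine and cytokine, 1 adhesion and TNF receptor, 3 CREB/CRTC target, 0 regulator and 1 AP-1 family genes. The p65 score minimum, the κB consensus outside promoters and leaving out the mitochondrial chromosome were chosen after seeing the data. The cause of these shifts was not tested. The p65 list, with a median at its lowest score, limits what could be found shared.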
